A study of Mus musculus with 9 samples.

Results

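The 9 genes described here were Fam45a, Cdk13, Ddx42, Nudc-ps1, Bank1, Pttg1, Vrk3, Zfyve27 and Oxtr, and they were picked out of 26602 genes with a count after their values in DJ-1+/+ and DJ-1-/- midbrain had been seen. They were selected on the p-values of their counts in these same libraries, as the autosomal genes with the smallest p apart from Park7, which encodes DJ-1. The values that chose them are therefore given as a description, and the fold changes of these 9 genes support nothing by themselves. RNA came from midbrain tissue containing the SNpc (substantia nigra pars compacta, where dopaminergic neurons lie) of 4 DJ-1+/+ and 5 DJ-1-/- mice, all between 3 and 4 months old. The DJ-1-/- mice were homozygous for a targeted, germline DJ-1 allele on a C57BL/6 background, and the DJ-1+/+ mice were wild-type littermates, so the allele is not restricted to a cell type by a promoter or Cre. Each library is a mouse of its own. In bulk tissue, fewer cells of a type and less RNA per cell cannot be told apart.

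These genes belong to no shared pathway. Cdk13 and Ddx42 act in making messenger RNA: CDK13 is a kinase that pairs with cyclin K and phosphorylates RNA polymerase II, and DDX42 is an RNA helicase of the SF3b complex, the part of the U2 snRNP that recognises the branch point of an intron. Fam45a (now Dennd10) and Zfyve27 act on membranes: DENND10 is a DENN-domain protein of late endosomes that associates with the Commander complex, and ZFYVE27 (protrudin) sits in the endoplasmic reticulum and helps neurites to grow out. Bank1, Vrk3 and Oxtr act in signalling, as a scaffold of the B cell antigen receptor, as a kinase-like protein of the VRK family that restrains ERK through the phosphatase DUSP3, and as the oxytocin receptor. Pttg1 encodes securin, which holds separase inactive until chromosomes part. Nudc-ps1 is a processed pseudogene of Nudc, whose protein works with the dynein motor.

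Sequence matters most for Nudc-ps1, because its transcript is nearly a copy of another gene. It is a single-exon gene of 551 bases, annotated in GRCm38 at chr8:29286431-29286981, minus strand. Aligned with the Nudc transcript, all of it matched Nudc bases 553 to 1107, the last part of the coding sequence, with 99.1% identity over 555 columns, of which 1 was a mismatch and 4 were gaps. The first 236 bases of the pseudogene hold every difference between them and are printed first, followed by Nudc bases 553 to 792. Capitals mark bases that differ from the other sequence or are missing in it.
Nudc-ps1: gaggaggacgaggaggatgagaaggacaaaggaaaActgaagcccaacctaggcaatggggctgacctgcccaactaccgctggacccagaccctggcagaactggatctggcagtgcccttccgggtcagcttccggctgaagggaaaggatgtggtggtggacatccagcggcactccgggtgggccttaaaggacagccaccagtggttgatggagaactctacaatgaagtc
Nudc: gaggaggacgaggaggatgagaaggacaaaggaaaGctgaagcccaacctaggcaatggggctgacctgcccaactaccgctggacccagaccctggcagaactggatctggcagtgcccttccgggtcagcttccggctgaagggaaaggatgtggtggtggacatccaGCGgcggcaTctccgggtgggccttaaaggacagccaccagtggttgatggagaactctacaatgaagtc
After this stretch the copies were identical to the end, and the longest identical run was 375 bases. All windows of 50 bases in the last 300 bases of Nudc-ps1 (100%) also occur in Nudc, whereas for the other 8 genes 0% of such windows occur in another annotated gene.

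The proximal promoters of Fam45a and Cdk13 are shown because these are the protein-coding genes of the set with more than a few counts whose libraries did not overlap between genotypes, in opposite directions. The windows run from 250 bases before the start to 50 bases after it in RefSeq (GRCm38.p6), which lists Fam45a as Dennd10. Capitals mark CCAAT boxes (CCAAT) and GC boxes (GGGCGG), searched on both strands. The first is chr19:60811305-60811604 on the plus strand and the second chr13:17805048-17805347 on the minus strand.
Fam45a: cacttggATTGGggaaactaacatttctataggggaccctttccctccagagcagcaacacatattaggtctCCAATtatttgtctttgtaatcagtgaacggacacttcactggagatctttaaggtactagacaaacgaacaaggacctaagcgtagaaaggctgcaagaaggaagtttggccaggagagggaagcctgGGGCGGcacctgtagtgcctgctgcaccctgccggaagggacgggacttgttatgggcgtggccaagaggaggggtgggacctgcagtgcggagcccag
Cdk13: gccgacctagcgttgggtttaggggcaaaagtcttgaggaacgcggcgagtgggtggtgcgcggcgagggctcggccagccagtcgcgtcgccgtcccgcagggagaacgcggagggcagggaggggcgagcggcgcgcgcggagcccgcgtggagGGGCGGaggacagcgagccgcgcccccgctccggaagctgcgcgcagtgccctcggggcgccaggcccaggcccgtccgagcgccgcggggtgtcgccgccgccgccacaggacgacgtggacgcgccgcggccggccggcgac
The Fam45a window held 2 CCAAT boxes and 1 GC box, and the Cdk13 window 1 GC box. Of 32851 promoter windows, 37.4% held a CCAAT box and 35.7% a GC box, so the matches are common. CpG content set them apart: the Fam45a window held 8 CpG, close to the median of 7, whereas the Cdk13 window held 52 and 99.4% of windows held fewer. RefSeq windows were found for 7 of the 9 genes. Those of Pttg1 and Zfyve27, with 20 and 26 CpG, held none of the 6 motifs searched, which beside these boxes were the TATA box (TATAAA, in 13.6% of windows), the antioxidant response element core (TGACNNNGC, 12.4%), the cell cycle homology region (TTTGAA, 17.9%) and the ETS core (CCGGAAGT, 3.89%). Bank1 had 3 CpG and overlapping TATA boxes on the opposite strands.

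Library totals were 841974 to 886085 counts in DJ-1+/+ and 967751 to 1098125 in DJ-1-/- mice, so every DJ-1-/- library was deeper. Values are given as cpm, the counts of unique molecular identifiers (UMIs, tags that let PCR copies be counted once) in each 1000000 of a library, and a count of 3 corresponded to 2.73 to 3.56 cpm. Park7 fell from 135 ± 15.7 cpm (SD, n = 4) to 20.4 ± 4.54 cpm (SD, n = 5), with an adjusted p of 7.39e-08 in edgeR. All 10 dopaminergic markers were detected in the tissue, with summed levels of 475 to 941 cpm in DJ-1+/+ and 728 to 989 cpm in DJ-1-/- mice. In the fit between genotypes 9 of these 10 were higher in DJ-1-/- mice, 4 of them at an unadjusted p under 0.05 in edgeR, with a median log2 fold change of 0.34. All 10 choroid plexus markers and all 8 cerebellar neuron markers were lower, 6 and 5 of them at an unadjusted p under 0.05, with medians of -1.63 and -1.57, and 0 markers passed the adjusted threshold. Several libraries stood apart. Summed over 8 cerebellar neuron markers, DJ-1+/+ replicate 1 had 1102 cpm against 266 to 364 cpm in the other libraries. Summed over 10 choroid plexus markers, all of them detected, DJ-1+/+ replicate 4 had 855 cpm and DJ-1+/+ replicate 1 had 387 cpm, against 152 to 265 cpm elsewhere. The Y-linked gene Ddx3y had 113 to 152 counts, and Xist 0 to 2, in 3 libraries, DJ-1+/+ replicates 1 and 4 and the fifth DJ-1-/- library, while the others had 0 to 4 of Ddx3y and 146 to 193 of Xist. The part of these differences in the results was not tested. Fold changes without DJ-1+/+ replicates 1 and 4 together are given below for Oxtr and Bank1. For Pttg1 this log2 fold change was -2.18, for Vrk3 0.63, for Fam45a 0.58 and for Nudc-ps1 0.73. For Cdk13, Ddx42 and Zfyve27 it was -0.33, -0.30 and 0.30.

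A total of 10 counts or more was required for testing, which 18127 genes met. Of these, edgeR's quasi-likelihood test gave 513 an unadjusted p under 0.05, a background of 2.83%. All 9 genes of the set were among them because they were chosen that way. After Benjamini-Hochberg adjustment 1 gene was left, Park7, a background of 0.00552%, and 0 of the 9 genes passed, with adjusted p of about 1 in edgeR. DESeq2 likewise gave 0 of the 9 an adjusted p under 0.05 and 6 of them an unadjusted p under 0.05, leaving out Vrk3, Zfyve27 and Oxtr. In DJ-1-/- mice 6 of the genes were higher and 3 lower, beside 1.57% of all genes at an unadjusted p under 0.05 and higher and 1.26% at such a p and lower. In 4 of the 9 genes, Fam45a, Cdk13, Nudc-ps1 and Bank1, the 4 DJ-1+/+ and 5 DJ-1-/- libraries did not overlap, beside 1.25% of all genes tested, and nothing is read from that count since the same contrast chose the genes.

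In edgeR's fit the name of the set held for only 6 of its genes. The test whose p-values chose the set is not given in the sources used here. Among 17497 autosomal genes ranked by p without Park7, Pttg1 was at rank 2, Fam45a at 4, Cdk13 at 5, Nudc-ps1 at 6, Ddx42 at 7 and Bank1 at 9. Zfyve27, Vrk3 and Oxtr were at ranks 163, 205 and 326, so that 317 other genes came before the last of them. The genes outside the set with the highest ranks were Gabra6 at rank 1 and Pcp2 at rank 10, both cerebellar markers, Gsto2 at 3, Notch4 at 8 and Rpl10a at 11. At the far edge the values hardly differed. Oxtr had an unadjusted p of 0.0370 and a log2 fold change of 0.77 in edgeR's fit, and the next genes, Jarid2 and Ppp2r2a, had p of 0.0370 and 0.0371 in that fit with log2 fold changes of -0.23 and 0.17.

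**Figure D1:**
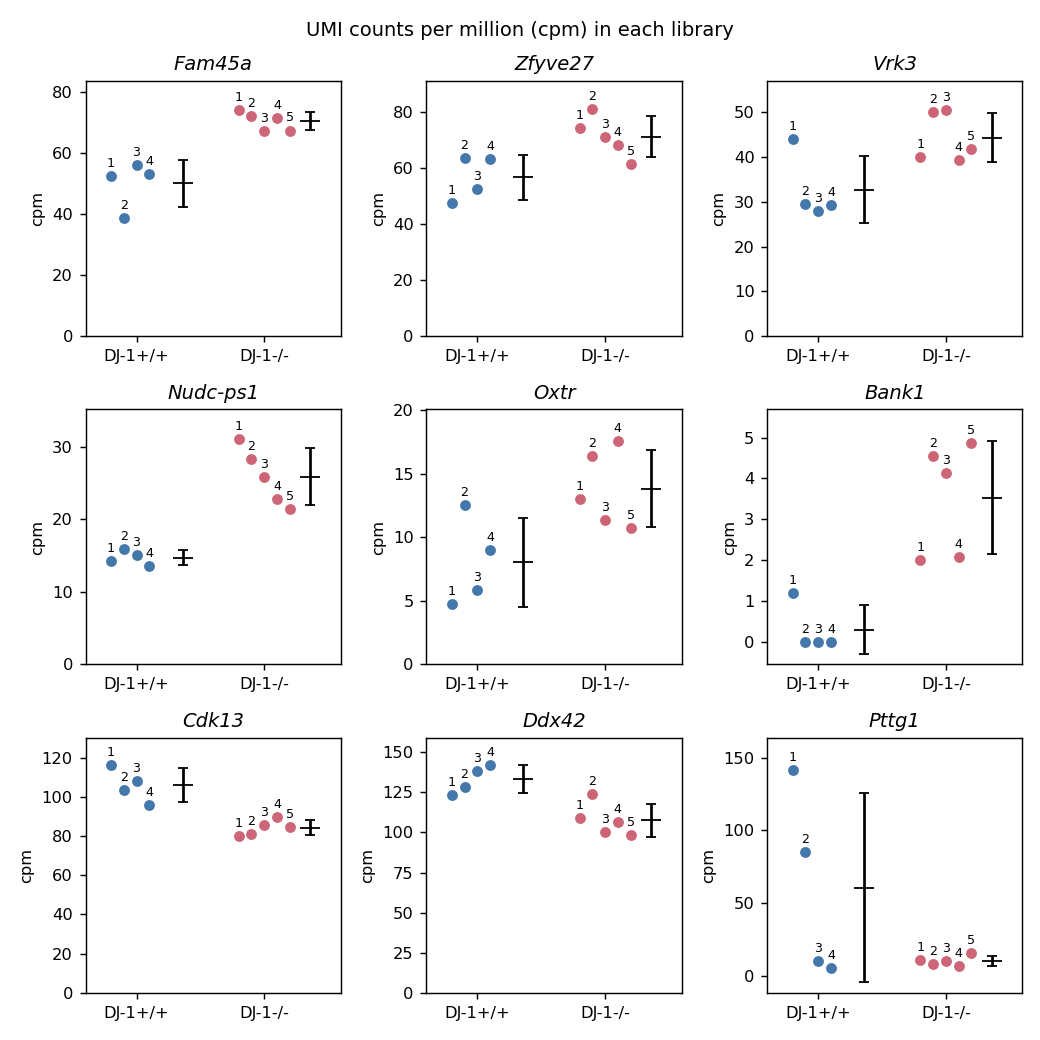
Level of each of the 9 genes (vertical axis, cpm) in the 4 DJ-1+/+ (blue) and 5 DJ-1-/- (red) libraries, numbered by replicate. Bars are the mean and SD of each genotype. Libraries do not overlap for Fam45a, Nudc-ps1, Bank1 and Cdk13, and in Pttg1 DJ-1+/+ replicates 1 and 2 stand far above the other 7 libraries.

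Cdk13 was lower in DJ-1-/- mice. In GRCm38 the gene spans chr13:17710315-17805097 on the minus strand and has 14 exons in its longest coding transcript. Its level was 116, 103, 108 and 95.9 cpm in the DJ-1+/+ mice and 80.1, 81.0, 85.6, 89.9 and 84.8 cpm in the DJ-1-/- mice. Every DJ-1-/- library was below every DJ-1+/+ library, the closest being DJ-1+/+ replicate 4 and DJ-1-/- replicate 4. The means were 106 ± 8.58 cpm (SD, n = 4) and 84.3 ± 3.93 cpm (SD, n = 5), a log2 fold change of -0.33 (standard error 0.09). In raw counts the genotypes did overlap, with 85 to 98 in DJ-1+/+ and 80 to 89 in DJ-1-/-, and the separation appears only once the deeper DJ-1-/- libraries are scaled.

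Among the 12 other transcriptional kinases, cyclins and polymerase genes listed with Cdk13, 1 had an unadjusted p under 0.05 and 0 an adjusted one in edgeR, and the median log2 fold change was -0.06. That gene was Ccnk, which encodes cyclin K, the partner of CDK13. Ccnk had 71.3, 65.9, 67.5 and 66.6 cpm in DJ-1+/+ and 75.1, 82.9, 81.5, 84.7 and 75.0 cpm in DJ-1-/- mice, without overlap and in the direction opposite to Cdk13 (log2 fold change 0.24, standard error 0.10). Cdk12, the other kinase that cyclin K binds, overlapped between genotypes at 96.2 ± 9.03 and 89.2 ± 5.28 cpm (SD, n = 4 and 5; log2 fold change -0.11, standard error 0.09).

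Ddx42 had the highest level of the set. The gene spans chr11:106216926-106249139 on the plus strand, with 18 exons. The DJ-1+/+ libraries had 124, 128, 138 and 142 cpm, and the DJ-1-/- libraries 109, 124, 100, 106 and 98.4 cpm. The groups overlapped only in that DJ-1-/- replicate 2 exceeded DJ-1+/+ replicate 1 by less than 1 cpm. The means were 133 ± 8.66 cpm (SD, n = 4) and 108 ± 10.1 cpm (SD, n = 5), a log2 fold change of -0.31 (standard error 0.08). The neighbouring gene Ftsj3 begins 3 bp after its end on the other strand. The annotated genes do not overlap, so only reads running past an annotated 3′ end would need strand to be told apart. The use of strand in counting is not given in the sources used here. Ftsj3 itself was at 80.8 ± 14.7 and 75.3 ± 7.60 cpm (SD, n = 4 and 5).

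The 17 proteins and helicases of the U2 snRNP listed with Ddx42 had a median log2 fold change of 0.00. Sf3b1, the core of SF3b, was at 160 ± 19.1 and 160 ± 8.80 cpm (SD, n = 4 and 5), and Ddx46, another helicase of the U2 snRNP, had a log2 fold change of -0.11 (standard error 0.09). The list held 2 genes with an unadjusted p under 0.05 and 0 with an adjusted one in edgeR, and both, Sf3b2 (log2 fold change 0.21) and Snrpa1 (0.36), were higher in DJ-1-/- mice.

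Fam45a was higher in DJ-1-/- mice. Its 9 exons lie at chr19:60811585-60836227 on the plus strand. The DJ-1+/+ libraries had 52.3, 38.6, 55.8 and 53.0 cpm, and the DJ-1-/- libraries 74.1, 71.9, 67.0, 71.3 and 67.2 cpm. Every DJ-1-/- library was above every DJ-1+/+ library, and DJ-1+/+ replicate 2 was the lowest of all. The means were 49.9 ± 7.69 cpm (SD, n = 4) and 70.3 ± 3.08 cpm (SD, n = 5), a log2 fold change of 0.49 (standard error 0.13), which was 0.38 without DJ-1+/+ replicate 2.

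The list for Fam45a held the other DENN-domain genes, Rab27 and the Commander complex. Of 33 tested, 3 had an unadjusted p under 0.05 and 0 an adjusted one in edgeR, and the median log2 fold change was 0.05. Vps26c (log2 fold change 0.34) and Commd4 (0.44), both of the Commander complex, were higher in DJ-1-/- mice, and Madd (-0.19), a DENN-domain activator of Rab3, was lower. Ccdc22 (-0.34, standard error 0.23) and Commd1 (0.11, standard error 0.20), also Commander subunits, overlapped between genotypes, as did the secretory GTPase gene Rab27b at 0.01 (standard error 0.09).

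Zfyve27 was the other membrane gene and also had a higher mean in DJ-1-/- mice. Its 13 exons lie at chr19:42163951-42194590 on the plus strand, also on the chromosome of Fam45a. Its level was 47.5, 63.6, 52.4 and 63.2 cpm in DJ-1+/+ and 74.1, 81.0, 71.2, 68.2 and 61.4 cpm in DJ-1-/- mice. DJ-1-/- replicate 5 lay below DJ-1+/+ replicates 2 and 4, and the other DJ-1-/- libraries lay above all 4 DJ-1+/+ libraries. The means were 56.7 ± 8.04 cpm (SD, n = 4) and 71.2 ± 7.25 cpm (SD, n = 5), a log2 fold change of 0.33 (standard error 0.13).

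Of the 20 protrudin partners and genes that shape the endoplasmic reticulum, 0 had an unadjusted p under 0.05 in edgeR, and DESeq2 gave 0 genes of any list an adjusted p under 0.05. Their log2 fold changes lay between -0.15 and 0.11. Spast (spastin, which severs microtubules) was at -0.03 (standard error 0.10), Vapa (an anchor for lipid transfer proteins) at -0.03 (standard error 0.07), Kif5b (the kinesin heavy chain that protrudin loads) at 0.05 (standard error 0.06) and Pdzd8 (a tether that protrudin binds) at -0.15 (standard error 0.10).

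Nudc-ps1 had a higher level in DJ-1-/- mice. Its counts were 12, 14, 13 and 12 in DJ-1+/+ and 31, 31, 25, 22 and 22 in DJ-1-/- mice, or 14.3, 15.9, 15.1 and 13.5 cpm against 31.0, 28.2, 25.8, 22.7 and 21.4 cpm. All DJ-1-/- libraries were above all DJ-1+/+ libraries. The means were 14.7 ± 1.03 cpm (SD, n = 4) and 25.8 ± 3.93 cpm (SD, n = 5), a log2 fold change of 0.81 (standard error 0.22). Given the identity printed above, a read within an identical stretch could come from either gene, and the value of Nudc-ps1 is uncertain for that reason. Nudc bases after 1107, up to the end of its transcript at 1316, lie outside the alignment with Nudc-ps1.

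Nudc itself is at chr4:133532542-133545996, minus strand. Wild-type libraries held 88, 88, 92 and 85 counts of it, and DJ-1-/- libraries 122, 119, 105, 95 and 111. Its level was 102 ± 4.91 and 109 ± 8.53 cpm (SD, n = 4 and 5), with overlapping libraries and a log2 fold change of 0.10 (standard error 0.08). The sum of both genes, 117 ± 5.38 and 135 ± 11.8 cpm (SD, n = 4 and 5), overlapped between DJ-1+/+ and DJ-1-/-, with 109 to 122 cpm against 121 to 153 cpm. That overlap was only of DJ-1-/- replicate 4, at 121 cpm, with DJ-1+/+ replicate 3, at 122 cpm. Nudc-ps1 took 12% to 13.7% of the summed counts in DJ-1+/+ and 16.5% to 20.7% in DJ-1-/- mice. This share holds the counts that chose Nudc-ps1, so its separation is part of the choice. In the remaining list of 15 genes with Nudc, the NudC family, the dynein complex and its chaperones, 0 had an unadjusted p under 0.05 in edgeR and the median log2 fold change was 0.03, with Pafah1b1 (LIS1, a dynein regulator) at 0.10 (standard error 0.07).

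**Figure D2:**
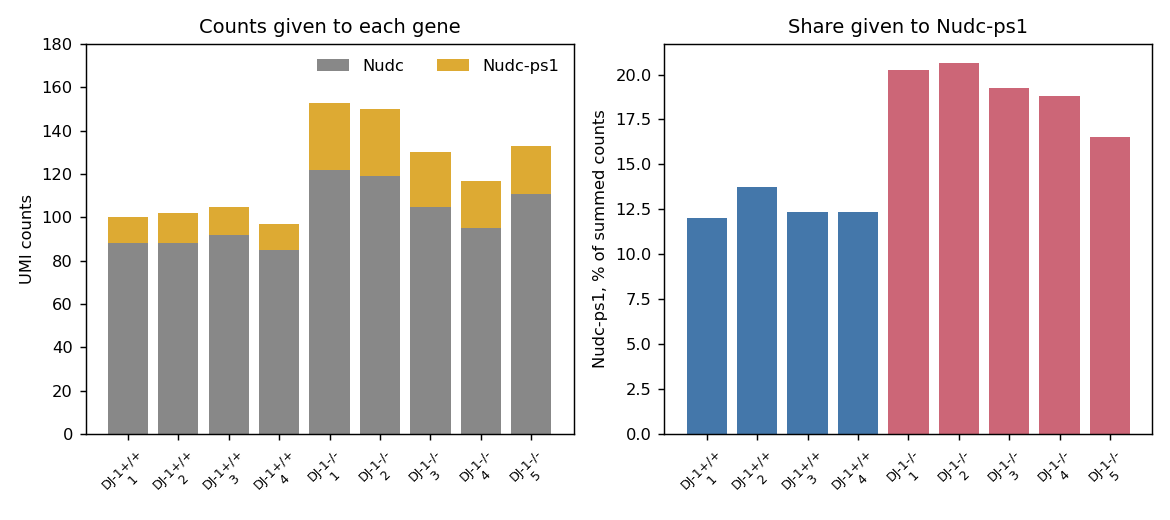
UMI counts given to Nudc (grey) and Nudc-ps1 (yellow) in each library, stacked on the left, and the share of their sum given to Nudc-ps1 on the right (percent; blue DJ-1+/+, red DJ-1-/-). The share is 12% to 13.7% in the 4 DJ-1+/+ and 16.5% to 20.7% in the 5 DJ-1-/- libraries.

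Pttg1 had the largest SD of the set among DJ-1+/+ mice in cpm. This gene of 5 exons is at chr11:43420250-43426251 on the minus strand. The DJ-1+/+ libraries held 119, 75, 9 and 5 counts, and the DJ-1-/- libraries 11, 9, 10, 7 and 16. In cpm the DJ-1+/+ libraries were at 141, 85.2, 10.5 and 5.64, and the DJ-1-/- libraries between 7.23 and 15.6. The DJ-1+/+ mice were therefore split, with replicates 3 and 4 inside or below the DJ-1-/- range. The means were 60.7 ± 65.0 cpm (SD, n = 4) and 10.5 ± 3.25 cpm (SD, n = 5), and the log2 fold change of -2.51 (standard error 0.66) averaged over that split. Without DJ-1+/+ replicate 1 it was -1.67, and without DJ-1+/+ replicate 4 it was -2.90. With no filter on low counts edgeR gave Pttg1 an adjusted p of 4.63e-09, while every other setting left it above 0.05.

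The gene closest to Pttg1 in pattern was Hba-a2, an alpha globin gene of the same chromosome (chr11:32296489-32297298, plus strand), which red blood cells carry. Hba-a2 had 89, 97, 14 and 11 counts in DJ-1+/+ and 15, 16, 5, 10 and 64 counts in DJ-1-/- mice. It was thus high in the same DJ-1+/+ libraries as Pttg1, and also in DJ-1-/- replicate 5, which had the most Pttg1 of its genotype. Other globin genes, looked up after these values were seen, did not show that split: Hba-a1 had 111, 154, 147 and 127 counts in DJ-1+/+ and 131 to 185 in DJ-1-/- mice, and Hbb-bs had 162, 203, 178 and 137 against 145 to 224. The alpha globin genes are near-identical copies, so their counts may be split between them. In the 2 DJ-1+/+ libraries with high Pttg1, the cerebellar markers summed to 1102 and 353 cpm and Ddx3y had 121 and 0 counts. The part of any of these in the level of Pttg1 was not tested. Summed over 6 markers of dividing cells, in which securin is mostly made, the 2 libraries high in Pttg1 had 7.13 and 7.96 cpm against 5.16 to 14.7 cpm over all libraries. Of 15 genes tested among separase, cohesin, anaphase and proliferation genes, 0 had an unadjusted p under 0.05 in edgeR, with a median log2 fold change of -0.08. Espl1, which encodes separase, had 0 to 4 counts in any library, Mki67 had 6 counts in all 9 libraries together, and Cdc20, which activates the anaphase-promoting complex, had a log2 fold change of -0.74 (standard error 0.67). The nearest gene, Slu7, 7493 bp away, was at 166 ± 4.45 and 166 ± 20.5 cpm (SD, n = 4 and 5).

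Bank1 stood at the limit of detection. Its 17 exons lie at chr3:136053363-136326066 on the minus strand. The DJ-1+/+ libraries held 1, 0, 0 and 0 counts, the DJ-1-/- libraries 2, 5, 4, 2 and 5. All DJ-1-/- libraries held it and 1 DJ-1+/+ library did, but DJ-1-/- replicates 1 and 4 were under 3 counts. Pooled, these were 18 of 5060495 counts against 1 of 3467509, a ratio of 12.3, for which counting error alone gives an exact 95% interval of 1.95 to 514. The interval shows how little 1 count fixes the ratio and is no test, since these counts chose the gene. The mean levels were 0.297 ± 0.594 cpm (SD, n = 4) and 3.52 ± 1.39 cpm (SD, n = 5), and a DJ-1+/+ library at 0 allows up to 3.39 to 3.49 cpm.

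The B cell genes around Bank1 were hardly present. Cd79a, an obligate part of the B cell receptor, was at 0 in all 9 libraries, and Cd79b had 1 count in DJ-1+/+ replicate 2. Summed over 6 B cell markers, 5 of them detected, libraries had 15.8 to 72.4 cpm in DJ-1+/+ and 39.95 to 93.1 cpm in DJ-1-/- mice. Of 13 genes of B cell receptor signalling 8 could be tested, 0 had an unadjusted p under 0.05 in edgeR, and the median log2 fold change was -0.06. Pik3ap1 (BCAP, an adaptor related to BANK1) had a log2 fold change of -0.31 (standard error 0.38).

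Vrk3 had a higher mean in DJ-1-/- mice. The gene, with 15 exons, is at chr7:44748413-44777515 on the plus strand, and its start overlaps Zfp473 on the other strand, which had 33 counts in all. Its level was 43.9, 29.5, 27.9 and 29.3 cpm in DJ-1+/+ and 40.0, 50.1, 50.5, 39.3 and 41.9 cpm in DJ-1-/- mice. DJ-1+/+ replicate 1 lay among the DJ-1-/- libraries, and the other 3 DJ-1+/+ libraries lay below all of them. The means were 32.7 ± 7.54 cpm (SD, n = 4) and 44.4 ± 5.52 cpm (SD, n = 5), a log2 fold change of 0.44 (standard error 0.18), and 0.62 without DJ-1+/+ replicate 1. Of the related kinases, Vrk1 was at 0.07 (standard error 0.16) and Vrk2 at -0.36 (standard error 0.38) on the log2 scale. Dusp3, the phosphatase through which VRK3 acts on ERK, was at 152 ± 12.9 and 151 ± 8.73 cpm (SD, n = 4 and 5). Of the 10 genes in this list 0 had an unadjusted p under 0.05 in edgeR, and the median log2 fold change was -0.01.

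Oxtr was low in all mice and had a higher mean in DJ-1-/-. The gene is at chr6:112473683-112489943 on the minus strand, and its longest coding transcript has 2 exons. Counts were 4, 11, 5 and 8 in DJ-1+/+ and 13, 18, 11, 17 and 11 in DJ-1-/- mice, or 4.75, 12.5, 5.82 and 9.03 cpm against 13.0, 16.4, 11.3, 17.6 and 10.7 cpm. DJ-1+/+ replicate 2 exceeded DJ-1-/- replicates 3 and 5. The means were 8.02 ± 3.49 cpm (SD, n = 4) and 13.8 ± 3.04 cpm (SD, n = 5), a log2 fold change of 0.77 (standard error 0.34), which was 1.05 without DJ-1+/+ replicate 2 and 0.59 without DJ-1+/+ replicates 1 and 4.

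The ligands varied far more than the receptor. Oxt, the oxytocin precursor made by hypothalamic neurons, had 0, 192, 15 and 13 counts in DJ-1+/+ and 3, 21, 163, 5 and 0 counts in DJ-1-/- mice. Avp, the vasopressin precursor, had 0, 135, 16 and 10 counts in DJ-1+/+ and 7, 26, 107, 1 and 1 in DJ-1-/- mice. DJ-1+/+ replicate 2 and DJ-1-/- replicate 3 were thus highest in both, 1 library of each genotype, and the log2 fold changes of -0.71 (standard error 1.03) and -0.70 (standard error 0.96) were smaller than their errors. Avpr1a, a vasopressin receptor, was at 8.90 ± 4.08 and 5.43 ± 3.49 cpm (SD, n = 4 and 5). Of 12 genes tested in this list, 1 had an unadjusted p under 0.05 and 0 an adjusted one in edgeR: Itpr1, the calcium channel opened by inositol trisphosphate, at -0.38.

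Over all lists, 142 partner genes were tested, and 7 of them (4.93%, beside 2.83% of all genes) had an unadjusted p under 0.05 in edgeR, 5 higher and 2 lower in DJ-1-/- mice. None passed the adjusted threshold in edgeR (0) or in DESeq2 (0, with 4 at an unadjusted p under 0.05). The median log2 fold change was -0.02, beside 0.01 over all genes.

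**Figure D3:**
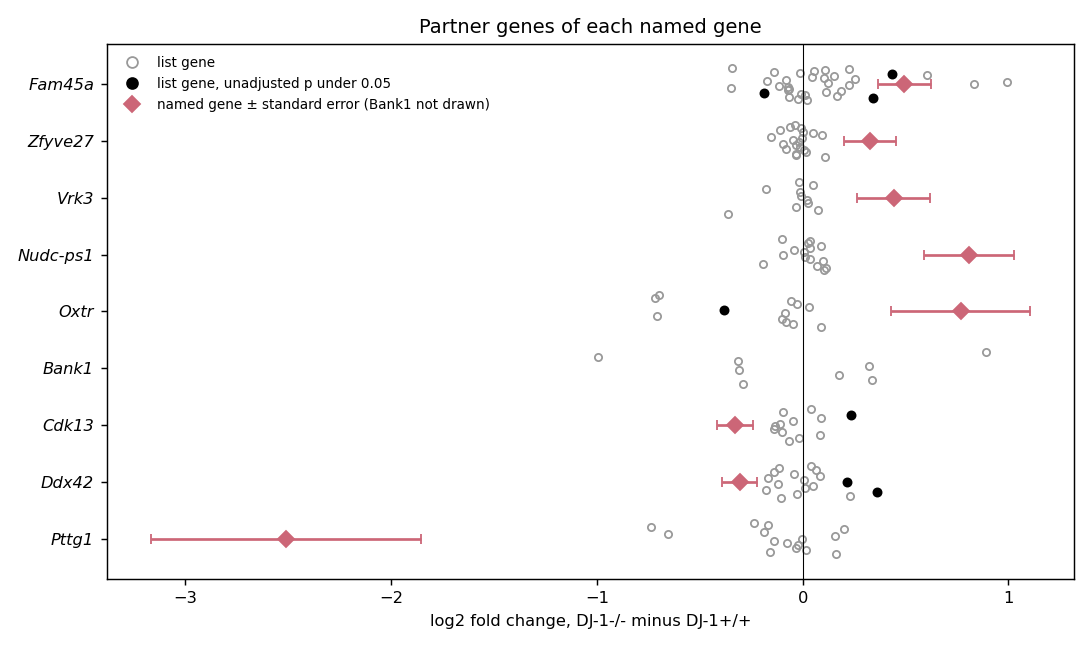
Log2 fold change (horizontal axis, DJ-1-/- minus DJ-1+/+) of the partner genes tested for each named gene, with open circles for list genes, filled circles for the 7 with an unadjusted p under 0.05, and diamonds with standard errors for the gene itself. The diamonds lie away from 0 by selection, and the list genes lie around it, with a median of -0.02. Bank1's own value is not drawn because it rests on 1 count in DJ-1+/+.

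Position on the chromosome was not used to choose the genes. Within 500 kb of them 135 other genes were tested, with a median log2 fold change of 0.03. In edgeR 4 had an unadjusted p under 0.05, beside 2.83% of all genes tested, and 0 an adjusted one (DESeq2: 2 unadjusted). The 4 in edgeR were Sfxn4 beside Fam45a, Tbc1d17 and Cd37 near Vrk3, and Pgam1 near Zfyve27. Sfxn4, a mitochondrial sideroflexin gene, begins 1050 bp after the end of Fam45a on the other strand, so their 3′ ends face each other. It was at 27.7 ± 6.56 and 36.9 ± 2.77 cpm (SD, n = 4 and 5), a log2 fold change of 0.41 (standard error 0.18) in the direction of Fam45a. Around Pttg1, Cdk13, Ddx42, Bank1, Oxtr and Nudc-ps1, 0 of 53 neighbours had an unadjusted p under 0.05 in edgeR.

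**Figure D4:**
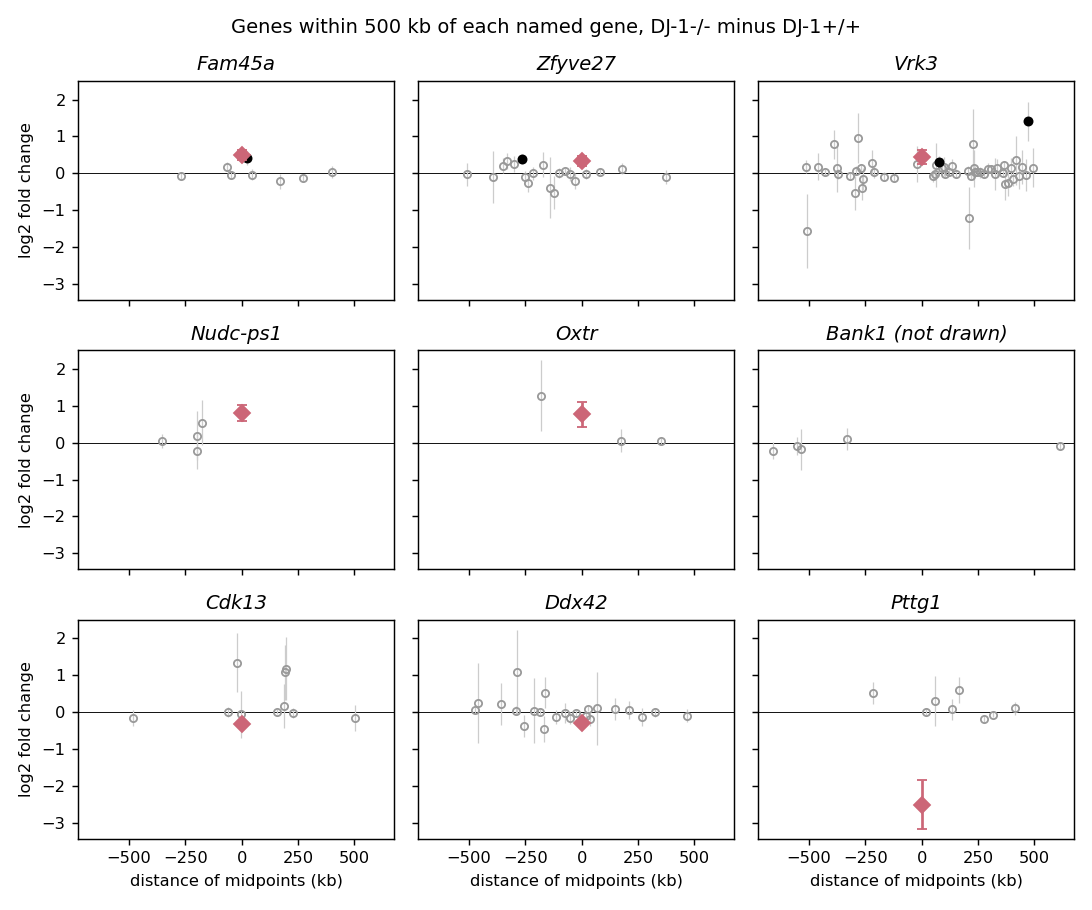
Log2 fold change (vertical axis, DJ-1-/- minus DJ-1+/+, with standard errors) of genes tested within 500 kb of each named gene, by the distance between gene midpoints in kb. Filled circles are the 4 neighbours with an unadjusted p under 0.05, red diamonds the named gene. Bank1's own value is not drawn.

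Since a 3′ library gives a transcript the same number of chances to be counted whatever its length, levels can be set side by side. Nudc-ps1 is an exception, and its level is uncertain because reads in its identical stretches could come from Nudc. By mean cpm over the 9 libraries, Ddx42 (119) came first, followed by Cdk13 (93.9), Zfyve27 (64.7), Fam45a (61.3), Vrk3 (39.2), Pttg1 (32.8), Nudc-ps1 (20.9), Oxtr (11.2) and Bank1 (2.09). Zfyve27 exceeded Fam45a in 4 of 9 libraries, so these neighbours did not differ beyond their spread. Pttg1 exceeded Nudc-ps1 in only 2 of 9, DJ-1+/+ replicates 1 and 2, and lay below it in all the others. The higher mean of Pttg1 therefore rests on those libraries. Vrk3 exceeded Pttg1 in 7 of 9 and Cdk13 exceeded Zfyve27 in 8 of 9 libraries. Each other neighbour in this order was higher in 9 of 9.

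Replicates of a genotype differed by about what counting alone gives, with the exception of Pttg1. The chi-square statistic per degree of freedom, which is near 1 for pure counting error, was 60.3 for Pttg1 in DJ-1+/+ and between 0.0635 and 1.48 in the other 17 pairs of gene and genotype. It was lowest for Nudc-ps1 in DJ-1+/+ (0.0635) and for Fam45a (0.135) and Cdk13 (0.183) in DJ-1-/- mice, whose replicates lay closer together than counting error. A small spread lowers the p by which genes were chosen, so these values are part of the choice.

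The genes whose pattern lay closest to each of the 9 were found among 10763 genes with a mean of at least 20 counts, by the root mean square difference of centred log2(cpm + 1) over the 9 libraries. The closest for Zfyve27 was Tk2 (0.07), for Cdk13 Zfp91 (0.07), for Ddx42 Vhl (0.08), for Vrk3 Rhpn2 (0.10) and for Fam45a Tsta3 (0.11). Nudc-ps1 lay closest to Rpl28-ps1 (0.17) and Oxtr to Lekr1 (0.22). For Bank1 and Pttg1 the closest were Tfap2b at 0.64 and Hba-a2 at 0.76. These genes also varied most over the 9 libraries, and divided by the gene's own root mean square spread the closest distance was 0.63 for Bank1, 0.51 for Pttg1 and 0.30 to 0.44 for the other 7. Likeness over 9 libraries is a description and carries the libraries' shared depth and genotype.

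**Figure D5:**
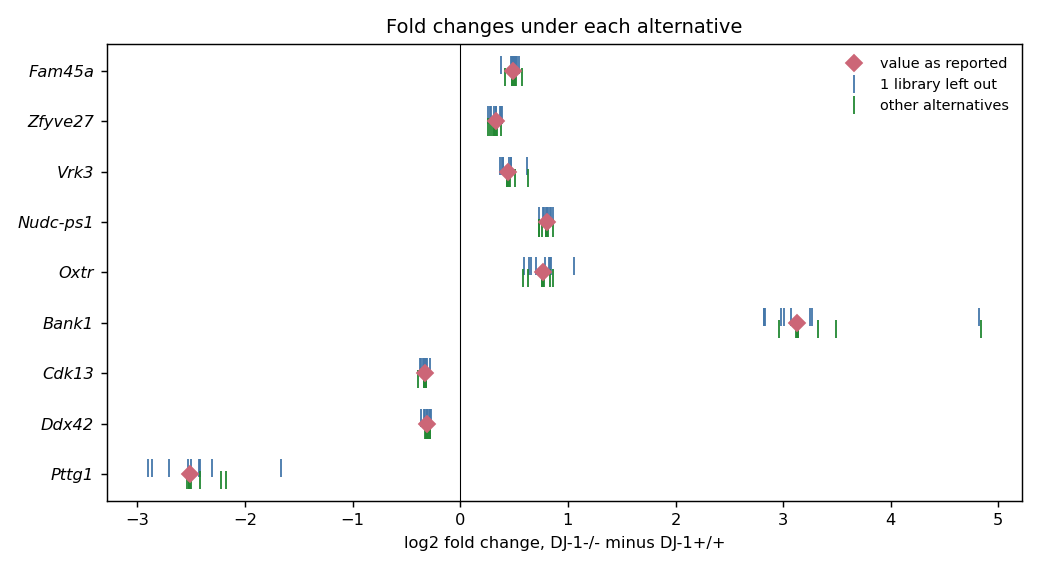
Log2 fold change (horizontal axis, DJ-1-/- minus DJ-1+/+) of each of the 9 genes as reported (diamonds), with 1 library left out (blue ticks) and under the other alternatives (green ticks). No value crosses 0, and the widest ranges are those of Bank1, up to 4.84, and Pttg1, from -2.90 to -1.67. The genes were chosen on this contrast in these libraries, so the kept direction is no support for it.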

How the data were processed

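RNA-seq of 9 midbrain samples was analysed. The authors deposited UMI counts per gene and library as whole numbers without normalization, from QuantSeq 3′ mRNA libraries. The submitters' processing notes name fastp 0.20.0, STAR 2.7.3a, Subread 2.0.0, UMI-tools 1.0.0 and GRCm38, and the use of strand and reads that fit several genes are not given in the sources used here. Genes absent from a library were given 0 counts, and GENCODE M21 supplied symbols and positions. A gene was tested if its counts summed to at least 10, with glmQLFit and glmQLFTest in edgeR 4.0.16 (R 4.3.3), TMM scaling, a model of genotype alone as in the study, and Benjamini-Hochberg adjustment over 18127 genes. The standard error is the size of the log2 fold change divided by the square root of F, and cpm is the count per 1000000 of its library. Called means an adjusted p under 0.05.

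The 9 genes, the partner and marker lists and the tests were chosen with earlier results of these data known. The genes named were the 9, Park7, the genes ranked around them, direct partners fixed by role, list genes and neighbours with an unadjusted p under 0.05, the nearest genes, and those closest in pattern. Neighbours were genes within 500 kb. Nudc-ps1 and Nudc were aligned with GENCODE transcripts.

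Alternatives were RLE size factors, library totals, DESeq2 1.42.0, no filter, at least 90 counts, counts thinned to 841974 per library, a block for the replicate number, a covariate for Xist in log2(cpm + 1), and each library left out. Leaving out DJ-1+/+ replicates 1 and 4 together was added after the data were seen. The tests were run first on simulated counts with known changes. Pairs of libraries of a genotype differed by a chi-square of 1.07 to 2.27 per degree of freedom over 16 pairs, so none was treated as a copy.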

Additional observations from a re-analysis of the deposited data

Results flagged for a closer look

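Of 18 groups (9 genes in 2 genotypes), 2 held a library far from the others by Dixon's test, which chance does in about 1 in 20 groups. Vrk3 was at 43.9 cpm in DJ-1+/+ replicate 1, against 27.9 to 29.5 cpm in the other DJ-1+/+ mice, and this is the library with the highest cerebellar markers. Bank1 was at 1.19 cpm in DJ-1+/+ replicate 1, which is a single count beside 3 libraries at 0. Such counts are always flagged by this test, so the rate of 1 in 20 does not apply to Bank1.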

How the results depend on the processing

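No fold change of the 9 genes changed direction under any of the alternatives, of which Bank1 had 17, not being tested at a minimum of 90 counts, and the others 18 each. Bank1's log2 fold change of 3.13 lay between 2.82 and 4.82 with each library left out, the highest being without DJ-1+/+ replicate 1, and was 4.84 without DJ-1+/+ replicates 1 and 4, which removes its only DJ-1+/+ count. Pttg1 passed an adjusted threshold in 1 setting, no filter on low counts (edgeR adjusted p = 4.63e-09), and its smallest adjusted p elsewhere was 0.158, with the replicate block. The 9 genes kept an unadjusted p under 0.05 in 6 to 9 cases per setting, and those that lost it were Vrk3, Zfyve27 and Oxtr. These same libraries chose the genes, so the kept directions and small p are a description and support nothing by themselves.

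The count of all genes with an adjusted p under 0.05, 1 as reported, was 36 with no filter, 8 with the replicate block and 1 to 2 with each library left out. The count with an unadjusted p under 0.05, 513 as reported, was 235 with DESeq2, 802 with no filter and 338 to 732 with each library left out, lowest without DJ-1-/- replicate 2. These 513 were 285 higher and 228 lower, and DESeq2 gave 106 higher and 129 lower. The 7 partner genes with an unadjusted p under 0.05 became 4 with DESeq2, with thinned counts and without DJ-1+/+ replicates 1 and 4, and 4 to 9 with each library left out (4 without DJ-1+/+ replicate 2 and without DJ-1-/- replicate 1 or 2). The 4 neighbours became 2 with DESeq2 and with the Xist covariate, and 1 to 9 with each library left out (1 without DJ-1-/- replicate 4, 9 without DJ-1-/- replicate 5, and 2 without DJ-1+/+ replicate 2 or without DJ-1-/- replicate 1 or 2). The cause of these changes was not tested.

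Replicate numbers were not treated as pairs. The deviations of same-numbered mice correlated at 0.28, 0.05, -0.09 and -0.18, and 1 of the 4 DJ-1+/+ mice matched its own number best. With the replicate block 571 genes had an unadjusted p under 0.05, and all 9 genes of the set did. With counts thinned to equal depth 8 of the 9 genes had an unadjusted p under 0.05 in edgeR. Zfyve27, with a log2 fold change of 0.26 in that setting, did not. Every DJ-1-/- library was deeper, so depth and genotype cannot be told apart by splitting the libraries.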
